A study of Mus musculus with 18 samples.

Results

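The p53 and cell cycle inhibitor barrier is represented here by the genes Trp53, Mdm2, Ccng1, Bbc3, Sesn2, Trp53inp1, Cdkn1a, Cdkn1b, Cdkn2a and Cdkn2b, chosen by name. Of these 10 genes, 9 had a probe set with that symbol alone, 1 probe set each, out of 22180 genes on the arrays. Trp53 itself is not analysed here. The arrays came from mouse cells of strain Black6-129X1/SvJ, measured once per condition on 18 whole-transcript gene arrays. Reprogrammable mouse embryonic fibroblasts (Rep-MEFs) were measured as bulk cultures expressing OKSM (the factors Oct4, Klf4, Sox2 and Myc) on days 2, 4, 6, 8, 10 and 12, with or without AGi, which is ascorbic acid plus an inhibitor of the kinase GSK3. The single arrays were Rep-MEFs without dox (written MEFs below), Thy1+ cells labelled as refractory that were sorted from Rep-MEFs after 3 days of OKSM, wild-type embryonic stem cells (ESCs), granulocyte-macrophage progenitors (GMPs), and iPSC lines made from fibroblasts with 4 days of AGi (Fib-iPSCs) and from GMPs with 2 days of AGi (GMP-iPSCs). All time-course cells carry and express OKSM, so no array shows AGi without OKSM. Values are log2 RMA expression; a difference of 1 is a doubling, and levels of different genes are not compared because their probes differ.

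The transcription factor p53 is held low by the ubiquitin ligase Mdm2, itself a p53 target, and when released it switches on genes for cell cycle arrest, apoptosis and repair. Cdkn1a (p21) and Cdkn1b (p27) inhibit cyclin-dependent kinases, and the Cdkn2a-Cdkn2b locus encodes p16Ink4a, p19Arf and p15Ink4b, of which Arf restrains Mdm2 and the Ink4 proteins block the kinases that act on Rb. This network is known as a barrier to iPSC reprogramming, because loss of p53 or of the Cdkn2a locus raises the yield of colonies.

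Sequence upstream of RefSeq transcript starts (GRCm38.p6) was available for 9 of the 10 named genes, Trp53 included and Trp53inp1 not, with 13 starts among them. In the 250 bases before each start, a match to the decameric p53 half-site consensus was searched on both strands, and so was CACGTG, the E-box bound by Myc. A half-site match lay upstream of 1 start each of Cdkn1a, Mdm2, Ccng1 and Trp53. Of 32851 promoters of that length, counted per start and not per gene, 7.13% hold one. The start of Cdkn1a shown here held 2 matches within 13 bases of each other, an arrangement found in 0.0639% of promoters. No half-site match was found in these windows at the second start of Cdkn1a or at the starts of Cdkn1b, Cdkn2a, Cdkn2b, Bbc3 and Sesn2. One of the starts of Bbc3 held CACGTG, which 6.02% of promoters hold. The 3 sequences shown are those of the measured genes with a match. Of these, Mdm2 carries a called AGi difference and Mdm2 and Ccng1 the called slopes over time, while Cdkn1a has neither. Sesn2 and Cdkn1b, the other genes with a called AGi difference, have no match. A link between matches and expression was not tested. Capitals mark the half-site matches, and a match is a description of letters, not a binding site.
Cdkn1a, chr17:29090729-29090978, + strand: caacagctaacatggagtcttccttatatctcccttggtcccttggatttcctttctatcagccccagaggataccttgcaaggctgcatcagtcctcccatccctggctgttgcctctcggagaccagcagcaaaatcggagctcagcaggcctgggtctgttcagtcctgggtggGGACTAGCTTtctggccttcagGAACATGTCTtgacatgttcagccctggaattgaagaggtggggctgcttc
Mdm2, chr10:117710759-117711008, - strand: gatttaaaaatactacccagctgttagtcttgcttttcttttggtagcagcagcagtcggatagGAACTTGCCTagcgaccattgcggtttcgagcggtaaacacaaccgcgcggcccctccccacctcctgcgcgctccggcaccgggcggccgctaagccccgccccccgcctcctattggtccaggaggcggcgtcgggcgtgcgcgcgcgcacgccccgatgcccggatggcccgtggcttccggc
Ccng1, chr11:40755287-40755536, - strand: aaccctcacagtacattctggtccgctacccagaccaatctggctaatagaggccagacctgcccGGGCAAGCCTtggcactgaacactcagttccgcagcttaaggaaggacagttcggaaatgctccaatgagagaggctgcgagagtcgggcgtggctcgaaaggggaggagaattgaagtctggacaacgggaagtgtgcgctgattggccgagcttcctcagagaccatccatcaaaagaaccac
In Cdkn1a the matches are GGACTAGCTT at position −73 from the transcript start and GAACATGTCT at −51. In Mdm2 the match is GAACTTGCCT at position −186 from the start and in Ccng1 GGGCAAGCCT at −185.

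The labels were checked against marker genes, as means over lists of log2 values. The myeloid progenitor markers averaged 11.71 in GMPs against 6.68 in MEFs, and the pluripotent markers 10.76 to 10.88 in the 3 pluripotent lines against 6.11 in MEFs. Fibroblast markers averaged 10.49 in MEFs, 9.77 in the sorted cells, and 9.84 and 9.11 in OKSM cultures on days 2 and 4. The list mean of the sorted cells thus lay between those of these cultures. Their level of Thy1, the marker they were sorted on, was 11.24. It lay below that of MEFs (11.63) and above those of OKSM cultures on days 2 (10.83) and 4 (10.36). Array medians lay between 6.32 and 6.46. No arm and day was measured more than once, and the labels do not say whether days come from separate cultures, so errors and p-values of the time course describe the spread between 6 days, which may be technical.

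Trp53inp1 and Bbc3 read at least 1 log2 higher in cultures expressing OKSM than in MEFs, while the other 7 genes had mean differences of less than 1 log2. Because MEFs are 1 array, these differences have no test: a gene was counted where the mean over the 6 OKSM days was at least 1 log2 from MEFs with all days on 1 side. By this rule 2 of 9 genes were counted, both higher, against 5.22% of all genes (3.19% higher, 2.03% lower). Here and in the other comparisons by size, all genes means the 22180 with no filter on level. The 9 genes all passed the level filter of the AGi test below, which 13865 genes passed. The share among those genes was not computed, so the 9 are set against an unlike background. All OKSM days lay on 1 side of MEFs for 5 of the 9 genes, against 50.5% of all genes, so that side alone is no result about these genes.

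Trp53inp1, a p53 target that acts in autophagy and apoptosis, read 9.69 in MEFs and 10.95, 11.22, 11.40, 11.03, 11.17 and 11.08 on days 2, 4, 6, 8, 10 and 12 of OKSM. Every OKSM array was above MEFs, and the mean of 11.14 ± 0.16 (SD, n = 6 days) was higher by 1.45. Most of this was already present on day 2, when Trp53inp1 differed from MEFs by 1.26.

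Bbc3 (Puma), a BH3-only protein that triggers apoptosis downstream of p53, read 6.83 in MEFs and 8.06, 8.04, 8.18, 7.88, 8.11 and 7.81 over the same days. Its mean, 8.01 ± 0.14 (SD, n = 6 days), was higher than MEFs by 1.18, and the day 2 difference was 1.23. Bbc3 and Trp53inp1 were also the 2 of 9 genes at least 1 log2 from MEFs on day 2 alone, against 5.23% of all genes (3% higher, 2.23% lower).

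Sesn2, a stress-induced inhibitor of mTORC1 signalling, read 9.72 in MEFs and 10.55, 10.70, 10.81, 10.38, 10.53 and 10.54 in OKSM cultures. All 6 OKSM arrays were above MEFs, by a mean of 0.87, which stays under the 1 log2 rule. Cdkn2a read 8.48 in MEFs and 8.93, 9.19, 9.08, 9.46, 9.37 and 9.18 with OKSM. It was above MEFs on every day, by a mean of 0.72. The probe set carries only the symbol Cdkn2a, so the transcripts of p16Ink4a and p19Arf are not told apart here.

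Cdkn2b, which encodes p15Ink4b, had the opposite sign to its neighbour Cdkn2a: it read 10.18 in MEFs and 9.33, 9.60, 9.70, 9.92, 9.59 and 9.53 with OKSM. The mean difference was −0.57, with day 2 the farthest from MEFs (−0.85) and day 8 the nearest. Cdkn1b read 8.59 in MEFs and 8.94, 8.55, 8.69, 9.05, 9.27 and 9.31 with OKSM, so day 4 lay slightly below MEFs and days 8 to 12 above.

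Cdkn1a read 12.89 in MEFs and 12.73, 12.92, 13.01, 12.77, 12.84 and 12.75 with OKSM, with days on both sides of MEFs and a mean difference of −0.05. Ccng1, a cyclin and long-known p53 target that feeds back on Mdm2, read 12.47 in MEFs and 12.35 to 12.67 with OKSM (mean difference 0.04). Mdm2 read 11.07 in MEFs and 10.53 to 11.26 with OKSM, above MEFs on days 2, 4 and 6 and below on days 8, 10 and 12.

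**Figure D1:**
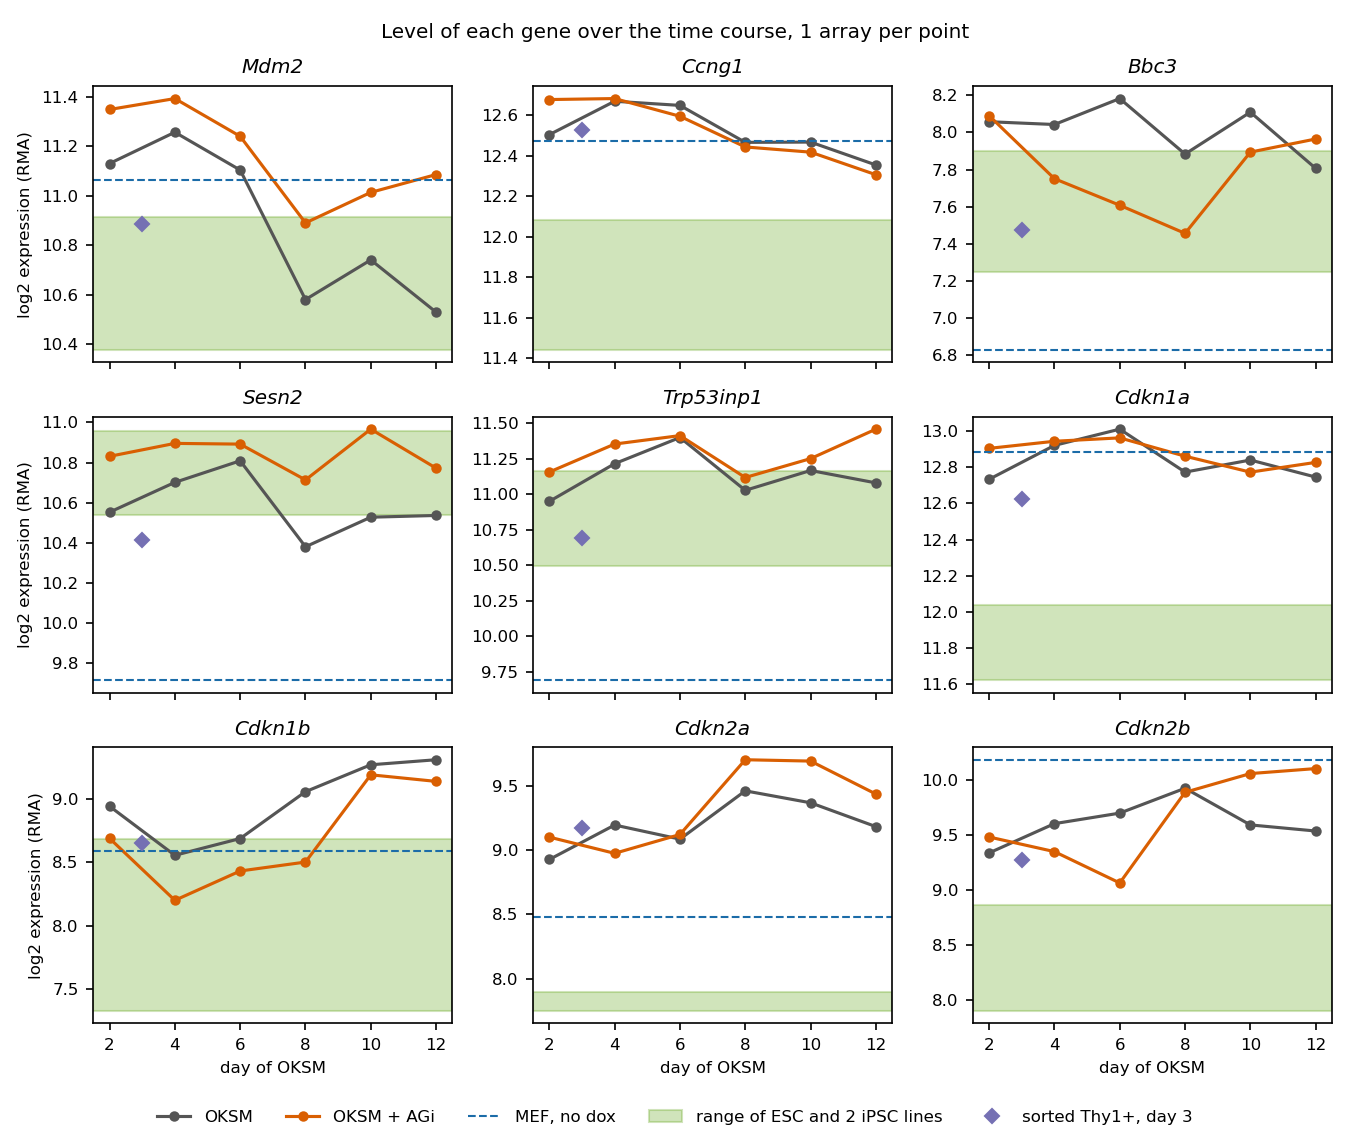
Log2 expression (RMA) of the 9 genes against day of OKSM, 1 array per point, for OKSM (grey) and OKSM plus AGi (orange); the dashed line is the MEF array, the green band the range of the ESC, Fib-iPSC and GMP-iPSC arrays, and the diamond the sorted Thy1+ cells at day 3. Bbc3, Sesn2, Trp53inp1 and Cdkn2a lie above the MEF line on all days in both arms and Cdkn2b below it, while Cdkn1a and Ccng1 stay near it and above the pluripotent band.

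The next comparison asked what AGi changed, with the 2 arms paired by day. Mdm2 and Sesn2 were higher and Cdkn1b was lower with AGi, each by less than 0.3 log2. These were 3 of the 9 genes, against 38.9% of the 13865 genes tested (19.6% higher and 19.3% lower), so the share of calls is near the background. All 9 genes passed the filter for the test, which asked for a value at the array median on 3 or more of the 12 time-course arrays. The AGi arrays also read higher for each of 18 hybridisation control probe sets, RNA that comes from no cell, by 0.06 to 0.26 (mean 0.17 ± 0.07, SD over 6 days). Tested with limma against the largest of these control differences instead of 0, none of the 9 genes passed, against 8.53% of all genes tested; the limma adjusted p was 1 for each of them. Against 0, 4 of the 9 genes had an unadjusted limma p under 0.05, the fourth being Trp53inp1. The unadjusted share over all genes tested was not computed, but it is at least the 38.9% that passed after adjustment. The 4 of 9 is thus no result about these genes.

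Mdm2 read 11.13, 11.26, 11.10, 10.58, 10.74 and 10.53 in OKSM and 11.35, 11.39, 11.24, 10.89, 11.01 and 11.09 in OKSM plus AGi on days 2 to 12. The AGi array was the higher one on 6 of 6 days, and the ranges of the arms overlapped. The mean difference was 0.27 ± 0.07 (log2, limma SE, n = 6 days, adjusted p = 0.0188), between 0.14 on days 4 and 6 and 0.56 on day 12.

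Sesn2 with AGi read 10.83, 10.90, 10.89, 10.71, 10.97 and 10.77, above the OKSM array of the same day on 6 of 6 days. Its mean difference was 0.26 ± 0.06 (limma, n = 6 days, adjusted p = 0.0145), from 0.08 on day 6 to 0.44 on day 10. The lowest AGi value lay below the highest OKSM value, so the arms overlapped.

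Cdkn1b with AGi read 8.69, 8.20, 8.43, 8.50, 9.19 and 9.13, below the OKSM array on 6 of 6 days. The mean difference was −0.28 ± 0.07 (limma, n = 6 days, adjusted p = 0.0191), and it was widest on day 8 (−0.55) and narrowest on day 10 (−0.08). For Cdkn1b the sign is opposite to that of the control probe sets. Without day 8, no call was left among the 3 genes (Mdm2 adjusted p = 0.0594, Sesn2 adjusted p = 0.0512, Cdkn1b adjusted p = 0.0557). Over all genes tested, leaving out day 8 also cut the calls, from 2722 to 1692 higher and from 2675 to 1842 lower. Cdkn1b also missed the threshold when day 4 was left out (adjusted p = 0.0531) and when day 6 was (0.0503). With day left out of the model, so without the replicate block, Sesn2 passed (adjusted p = 0.0264) and Mdm2 (adjusted p = 0.173) and Cdkn1b (adjusted p = 0.293) did not.

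Trp53inp1 was also higher with AGi on 6 of 6 days, at 11.16, 11.35, 11.41, 11.12, 11.25 and 11.46, with a mean difference of 0.15 ± 0.06 that did not pass (limma, adjusted p = 0.0976). A single sign on all days was seen for 4 of the 9 genes and for 36.5% of the genes tested. The arms did not separate completely for any of the 9, against 11.4% of the genes tested.

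Bbc3 with AGi read 8.09, 7.75, 7.61, 7.46, 7.89 and 7.96. It was lower than OKSM on days 4, 6, 8 and 10 and higher on days 2 and 12, with a mean difference of −0.22 ± 0.10 (limma, n = 6 days, adjusted p = 0.124; adjusted p = 0.0457 without day 12). Cdkn2a was the higher in the AGi arm on 5 of 6 days (0.13 ± 0.08, limma adjusted p = 0.224), the exception being day 4.

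Cdkn1a with AGi read 12.91, 12.95, 12.96, 12.86, 12.77 and 12.83, which overlaps OKSM fully. The difference of 0.04 ± 0.06 (limma, adjusted p = 0.600) has a 95% interval from −0.09 to 0.17. For Ccng1 the interval around the difference ran from −0.13 to 0.13 (adjusted p = 0.981). Neither interval holds a difference of 1 log2 on average over the course. Both describe the spread between days, which may be technical, so they exclude nothing about other cultures.

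Cdkn2b crossed between the arms. With AGi it read 9.48, 9.35, 9.06, 9.89, 10.06 and 10.10, so the AGi minus OKSM difference was 0.14, −0.25, −0.64, −0.04, 0.47 and 0.57 on days 2 to 12. The mean over all days was 0.04 ± 0.15 (limma, adjusted p = 0.849). The mean difference was −0.25 over days 2 to 6 and 0.33 over days 8 to 12, and this change of 0.58 ± 0.24 did not pass when tested (limma, adjusted p = 0.236).

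**Figure D2:**
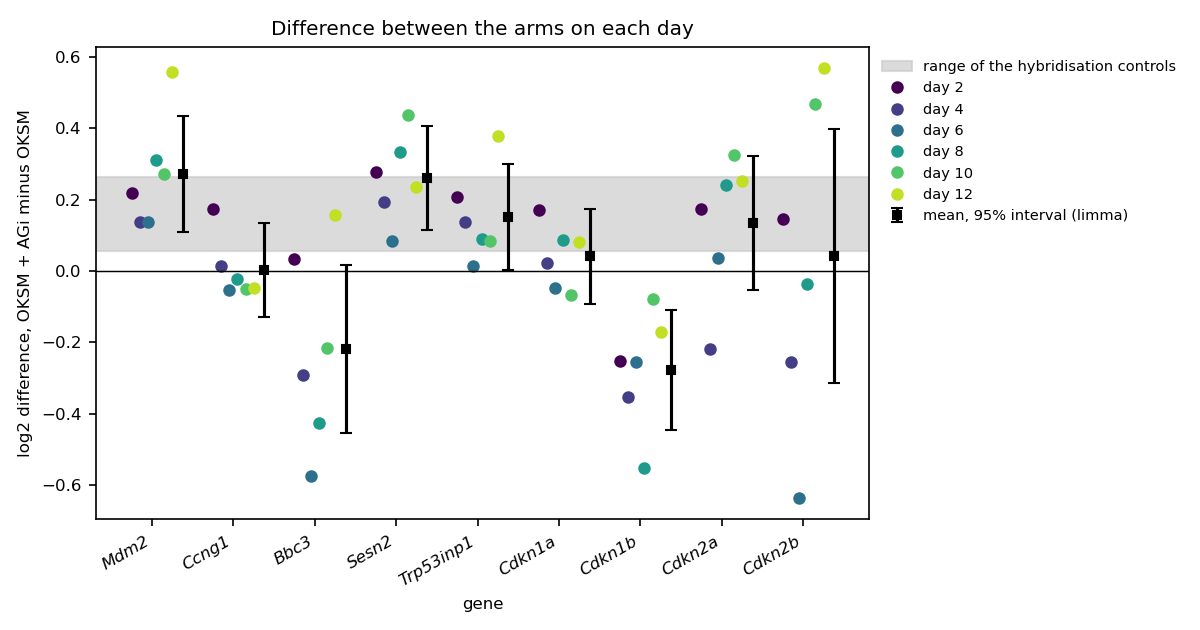
Log2 difference between OKSM plus AGi and OKSM for each gene on each of the 6 days (coloured points), with the mean and its 95% limma interval (black squares and bars); the grey band is the range of the 18 hybridisation control probe sets, 0.06 to 0.26. Mdm2 and Sesn2 lie above 0 on all days and Cdkn1b below 0, with means of 0.27, 0.26 and −0.28, and the Cdkn2b points spread from −0.64 to 0.57.

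Over time, Mdm2 fell in the OKSM arm, with a slope of −0.07 ± 0.02 log2 per day (limma, SE, adjusted p = 0.0351); it was the only 1 of the 9 genes with a called slope there, against 8.99% of the genes tested (5.11% higher, 3.87% lower). With AGi the called slope was that of Ccng1 (−0.04 ± 0.01, adjusted p = 0.0377), 1 of 9 against 18.8% (10.5% higher, 8.23% lower). Without day 2, Cdkn1b had a called OKSM slope as well (0.10, adjusted p = 0.0187), against 0.06 with all days. The Mdm2 call was lost without day 4, 6, 10 or 12, and the Ccng1 call without any of days 4 to 12. Cdkn2b (0.09 ± 0.03, adjusted p = 0.0509), Cdkn2a (0.06 ± 0.02, adjusted p = 0.0774) and Cdkn1b (0.08 ± 0.03, adjusted p = 0.0919) had positive slopes with AGi that did not pass. Leaving out day 2 gave Cdkn2b an adjusted p of 0.0195 and Cdkn1b one of 0.0037, and leaving out day 6 gave Cdkn2b one of 0.0353. No slope difference between the arms passed for the 9 genes, against 3.06% of the genes tested. Unadjusted, 0 of 9 had a limma p under 0.05, and the share of all genes tested at that level was not computed.

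Days 6 and 8 were set side by side, a description with no test. Mdm2 on day 8 minus day 6 was −0.52 in OKSM and −0.35 with AGi. Sesn2, Trp53inp1, Bbc3, Cdkn1a and Ccng1 were also lower on day 8 than on day 6 in both arms, by as little as 0.10 for Cdkn1a and 0.15 for Bbc3 with AGi. The inhibitors Cdkn2a (0.38 in OKSM, 0.58 with AGi) and Cdkn2b (0.23 and 0.82) were higher on day 8. Cdkn1b differed by 0.37 in OKSM but by 0.07 with AGi, where its larger move came from day 8 to day 10 (0.69). When the model gave days 8 to 12 a level of their own, no slope of the 9 genes passed. That of Mdm2 in OKSM was −0.0097 per day (limma, adjusted p = 0.991) and that of Ccng1 with AGi −0.0274 (adjusted p = 0.685). Over all genes tested, this model left 0 called slopes in OKSM, and 48 higher and 34 lower with AGi. The loss is therefore general and no result about Mdm2 or Ccng1. The mean of 15 fibroblast markers differed between these days too, from 9.08 to 10.43 in OKSM and from 8.34 to 9.44 with AGi, and that of 17 macrophage markers from 6.56 to 7.70 and from 6.4 to 6.87. Their part in the differences between days 6 and 8 was not tested, and in bulk cultures fewer cells of a type and less RNA per cell cannot be told apart.

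The arms differed in markers as well. With AGi 13 of 15 fibroblast markers were lower and 0 higher, and 9 of 13 macrophage markers tested were lower and 1 higher, against 19.3% and 19.6% of all genes. Of 13 pluripotent markers 8 were higher and 0 lower, and of 10 epithelial markers 7 were higher and 0 lower. Without day 10 the lower macrophage markers numbered 4, and without day 6, 8, 10 or 12 the higher pluripotent markers numbered 4. The mean of the fibroblast list ran from 9.08 to 10.56 over the OKSM arrays and from 7.95 to 9.72 over the AGi arrays. The mean of the pluripotent list ran from 6.10 to 7.70 and from 6.27 to 10.13, and that of the macrophage list from 6.43 to 8.04 and from 6.34 to 7.62. The mean of the epithelial list ran from 7.16 to 8.16 and from 7.01 to 9.63. Of its 10 genes, 5 passed against the control difference, against 8.53% of all genes tested. The counts were 9 of 15 for fibroblast, 4 of 13 for pluripotent and 0 of 13 for macrophage markers tested. The part of the cells with these markers in the AGi differences of Mdm2, Sesn2 and Cdkn1b was not tested.

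Against MEFs, the AGi arm had 2 of 9 genes at least 1 log2 away with all days on 1 side, against 7.98% of all genes (4.28% higher, 3.7% lower): Trp53inp1, higher by 1.60, and Sesn2, higher by 1.13. Bbc3 was above MEFs by a mean of 0.96 and Cdkn2a by 0.85 on 6 of 6 days, and Cdkn2b was below by 0.53. All AGi days lay on 1 side of MEFs for 5 of the 9 genes, against 52.2% of all genes. The OKSM and AGi comparisons share the MEF array, so their values stand side by side and do not support each other.

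**Figure D3:**
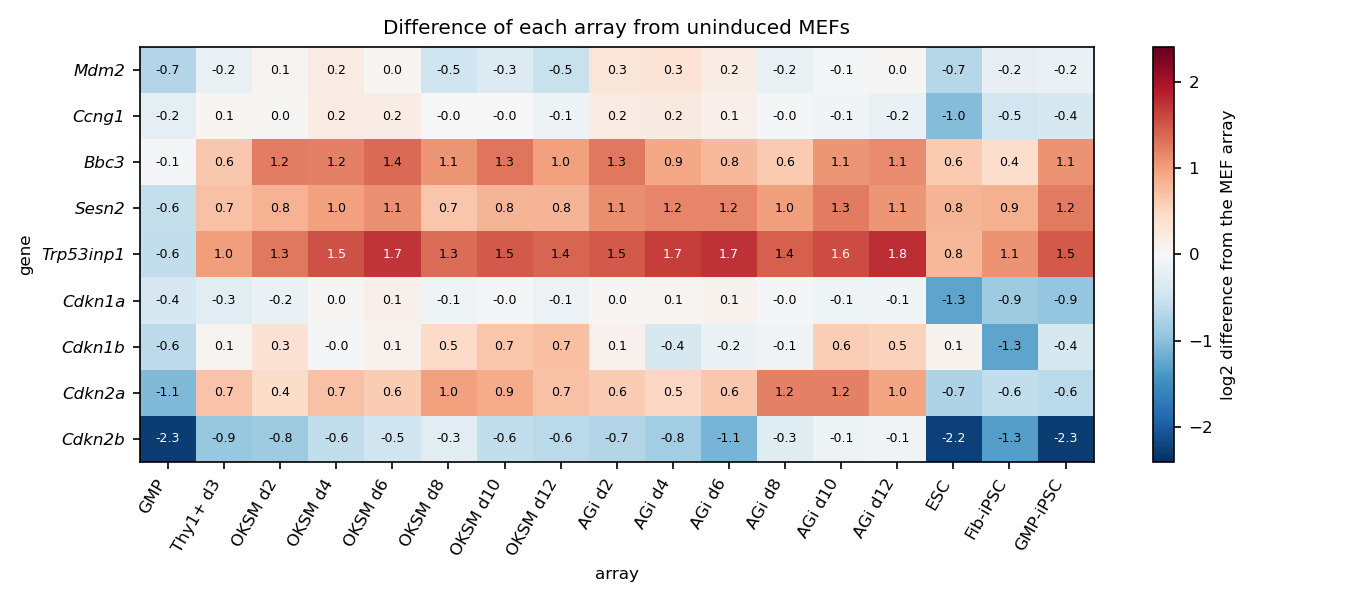
Log2 difference of each array from the MEF array for the 9 genes (rows), with red for higher and blue for lower; AGi columns are OKSM plus AGi, and d gives the day. Trp53inp1 is the reddest row throughout the time course, and Cdkn2b is bluest in the GMP, ESC and GMP-iPSC columns.

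The pluripotent lines had lower Cdkn1a and Cdkn2b and higher Trp53inp1 than MEFs, by at least 1 log2 on average with all 3 lines on 1 side. These were 3 of 9 genes, against 15.8% of all genes (7.67% higher, 8.1% lower), with 1 array per line and no test. All 3 lines lay on 1 side of MEFs for 8 of the 9 genes, against 74.3% of all genes. Cdkn2b read 7.95 in ESCs, 8.86 in Fib-iPSCs and 7.90 in GMP-iPSCs, a mean difference of −1.95 from the 10.18 of MEFs. Cdkn1a read 11.62, 12.03 and 11.95, a mean difference of −1.02 from MEFs, and of −0.89 without ESCs. All 3 lines lay below MEFs for both genes.

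Trp53inp1 read 10.49, 10.76 and 11.17 in ESCs, Fib-iPSCs and GMP-iPSCs, higher than MEFs by a mean of 1.12 and by 0.94 without GMP-iPSCs. Sesn2 read 10.54, 10.57 and 10.96, higher by a mean of 0.97. The levels of both genes in OKSM cultures were therefore near those of the pluripotent lines from day 2 on, while Nanog, a core pluripotency factor, read 6.24 on day 2 of OKSM and 12.26 to 12.32 in the lines.

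Cdkn2a read 7.75, 7.89 and 7.84 in the 3 lines, the narrowest spread of the 9 genes there (SD 0.07), and the mean difference from MEFs was −0.66. Cdkn1b had the widest spread of the 9, at 8.68 in ESCs, 7.33 in Fib-iPSCs and 8.22 in GMP-iPSCs (SD 0.69), and the lines lay on both sides of MEFs. Fib-iPSCs and ESCs differed in Cdkn1b by −1.35, the 1 of 9 genes past 1 log2 between them, against 2.73% of all genes (1.68% higher, 1.06% lower). Between GMP-iPSCs and ESCs no gene of the 9 was past 1 log2, against 1.37% of all genes, and the widest difference was 0.68 for Trp53inp1.

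Mdm2 read 10.38, 10.87 and 10.91 in ESCs, Fib-iPSCs and GMP-iPSCs, Ccng1 11.44, 12.01 and 12.08, and Bbc3 7.46, 7.25 and 7.90. ESCs were lowest of the lines in Mdm2, Ccng1, Cdkn1a, Sesn2, Trp53inp1 and Cdkn2a. With 1 array each, whether the lines differ beyond their own spread cannot be judged.

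Day 12 was then set against the pluripotent lines, a comparison chosen after the data were seen. Nanog in the AGi arm had reached 12.08 on day 12, near the lines, and 9.95 in OKSM. Other pluripotent markers had not: with AGi 3 of 13 were lower than the lines by the 1 log2 rule, against 1.56% of all genes. These were Lin28a (−2.45), Dppa2 (−1.57) and Gdf3 (−1.04), named after their values were seen. The list had 0 higher and a median of −0.62. In OKSM 12 of 13 were lower, against 5.43% of all genes. In the AGi arm Cdkn2b (10.10), Cdkn2a (9.43) and Cdkn1b (9.13) were still above all 3 lines, by 1.87, 1.61 and 1.06 from their mean. These were 3 of 9 genes, against 6.65% of all genes (5.09% higher, 1.56% lower). Without Fib-iPSCs, Cdkn1b was above the other 2 lines by 0.69 with AGi and by 0.86 in OKSM, both under 1 log2. Cdkn1a (12.83) was above by 0.96, and by 1.04 without Fib-iPSCs; it passed the rule then and also without GMP-iPSCs. In OKSM without AGi the same 3 inhibitors were above by 1.30 for Cdkn2b, 1.35 for Cdkn2a and 1.23 for Cdkn1b, against 14.4% of all genes (8.96% higher, 5.43% lower). Day 12 lay outside the range of the 3 lines for 8 of the 9 genes with AGi, against 73.4% of all genes, and for 6 of the 9 in OKSM, against 75.7%. Fibroblast markers averaged 9.72 on day 12 of AGi and 6.91 to 8.59 in the lines, so the AGi culture also held more signal of these markers; the share of each cell type in the inhibitor signal was not tested.

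The sorted Thy1+ cells of day 3 were set against the OKSM cultures of days 2 and 4. None of the 9 genes was 1 log2 away from the mean of those 2 arrays, against 0.757% of all genes. Bbc3 read 7.47 in the sorted cells against 8.06 and 8.04, a difference of −0.58 from the mean and the widest of the 9. Trp53inp1 read 10.69 against 10.95 and 11.22 (−0.39), and Mdm2 10.89 against 11.13 and 11.26 (−0.31). Sesn2 (10.41), Cdkn1a (12.63) and Cdkn2b (9.27) also lay below both OKSM arrays, while Cdkn2a (9.17), Cdkn1b (8.65) and Ccng1 (12.53) lay between them. Of all genes 65.4% were outside the range of both arrays.

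Against MEFs, Trp53inp1 was the 1 of 9 genes past 1 log2 in the sorted cells (1.01), against 4.9% of all genes (2.58% higher, 2.31% lower), and it read 0.96 after repeated quantile normalization. Sesn2 (0.70), Cdkn2a (0.69) and Bbc3 (0.64) were above MEFs and Cdkn2b (−0.91) below. The difference of Bbc3 from MEFs was 0.64 in the sorted cells and 1.23 on day 2 of OKSM.

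GMPs had the lowest level of any of the 18 arrays for Mdm2 (10.37), Cdkn2a (7.42), Bbc3 (6.78), Sesn2 (9.15) and Trp53inp1 (9.09). They differed from MEFs by at least 1 log2 in 2 of 9 genes, against 15.9% of all genes (7.42% higher, 8.49% lower): Cdkn2b (7.90, −2.28) and Cdkn2a (−1.07). Cdkn2b read 7.90 in GMP-iPSCs as well, while Trp53inp1 was 11.17 there against 9.09 in GMPs.

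Across all 18 arrays, some of these genes moved together, as described by Pearson's r over arrays that share time points and cell types. Sesn2 and Trp53inp1 had r = 0.946 over 18 arrays and 0.719 over the 12 time-course arrays. Cdkn1a and Ccng1 had r = 0.929 and 0.751, and Cdkn2a and Cdkn2b r = 0.849 and 0.796. Bbc3 and Trp53inp1 had r = 0.848 over 18 arrays but −0.038 over the time course. Cdkn1b went against Ccng1 (−0.764), Cdkn1a (−0.751) and Mdm2 (−0.716) within the time course.

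The genes most like each of the 9 over the 18 arrays, among those tested, were as follows. For Cdkn1a they were the cyclin gene Ccnd2 (r = 0.949), Commd3 (0.945) and the X-inactivation RNA Xist (0.945), and for Ccng1 they were Susd6 (0.918), Commd3 (0.918) and Rap2b (0.913). Trp53inp1 was most like Shroom3 (0.949), Klf4 (0.936), an OKSM factor whose probe set may read the induced gene as well as the cells' own, and Wwc1 (0.924). Sesn2 was most like Igsf9b (0.961), Lama1 (0.951) and Shroom2 (0.942). Cdkn2b was most like Slc35f6 (0.935), the matrix gene Thbs2 (0.932) and Masp1 (0.930), and Cdkn2a like Gpm6b (0.937), Cd80 (0.935) and Cyp4f17 (0.931). Lower values were reached for Bbc3 (Zfp763, 0.881; Nbr1, 0.874; Zc3hav1l, 0.872), Mdm2 (Gm53, 0.890; Gss, 0.879; Tmtc3, 0.850) and Cdkn1b (Vwa5a, 0.908; Zfp943, 0.881; Wdr19, 0.880).

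Other genes of the pathway came from lists chosen with earlier results of these data known, and were counted beside the 9. Of 39 further p53 targets, 7 were higher and 2 lower than MEFs with OKSM by the 1 log2 rule, against 3.19% and 2.03% of all genes (median 0.28, all genes −0.02). The lower ones were Plk3 (−1.67) and Plk2 (−1.12), and the higher ones included Perp (3.44), a desmosomal protein needed for p53-dependent apoptosis, and the death receptor Fas (2.07), named after their values were seen. In the pluripotent lines, 2 of these 39 were higher and 8 lower than MEFs, against 7.67% and 8.1% of all genes. With AGi 10 of 39 rose and 5 fell (limma, adjusted p under 0.05; median 0.06, all genes 0.0010), which is 38.5% against 38.9% of all genes tested, the background share. Perp rose by 0.45 ± 0.10 (adjusted p = 0.0089) and Pidd1 by 0.33 ± 0.06 (adjusted p = 0.0059), while Fas fell by 0.88 ± 0.24 (adjusted p = 0.0205) and Sesn1, the paralogue of Sesn2, fell by 0.54 ± 0.10 (adjusted p = 0.0052). Thbs1, an antiangiogenic matrix protein, fell by 0.55 ± 0.08 (adjusted p = 0.0024) and also passed against the control difference (adjusted p = 0.0478). Without day 8 the counts were 3 higher and 2 lower, while those over all genes tested went from 2722 to 1692 and from 2675 to 1842. Perp is also an epithelial gene; the part of the epithelial markers in its value was not tested.

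Of 29 p53 regulators tested, 11 were higher and 2 lower with AGi (median 0.13), 44.8% against 38.9% of all genes tested, and 7 were higher without day 8 or without day 10. Mdm4, the partner of Mdm2 in restraining p53, differed by 0.42 ± 0.08, with 6 of 6 days higher (limma, adjusted p = 0.0059), and so did the checkpoint kinase Chek2 (0.77 ± 0.14, adjusted p = 0.0044) and Prkdc, the catalytic subunit of DNA-PK (0.43 ± 0.09, adjusted p = 0.0073). Hipk2, a kinase that phosphorylates p53, fell by 0.69 ± 0.10 (adjusted p = 0.0023). Chek2 and Hipk2 also passed against the largest control difference (adjusted p = 0.0392 and 0.0255), and Mdm4 did not (adjusted p = 0.241). In the pluripotent lines, 9 of 30 regulators measured were higher and 1 lower than MEFs, against 7.67% and 8.1% of all genes. The part of pluripotent cells in the AGi differences of this and the following lists was not tested. Of the p53 family, Trp73 had an AGi difference of 0.48 ± 0.10, positive on 5 of 6 days (limma, adjusted p = 0.0088). It did not pass against the control difference (limma, adjusted p = 0.199). In OKSM Trp73 read 6.42 to 6.75, near the array medians. Trp63, at 5.83 to 6.16 on all 18 arrays, was below the filter.

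Among the other CDK inhibitors, Cdkn2c (p18Ink4c) fell by 0.89 ± 0.17 (limma, n = 6 days, adjusted p = 0.0064) and Cdkn1c (p57) by 0.45 ± 0.08 (adjusted p = 0.0043), both lower on 6 of 6 days, and Cdkn2d (p19Ink4d) had a difference of −0.09 ± 0.06 (adjusted p = 0.273). Cdkn2c read 9.47, 8.74, 8.69, 9.05, 9.51 and 8.84 in OKSM and 9.03, 8.34, 8.21, 7.98, 8.09 and 7.30 with AGi. On day 12 of AGi Cdkn2c was near the pluripotent lines (6.51 to 7.03), while Cdkn2a and Cdkn2b were above theirs by more than 1 log2. Cdkn2c passed against the control difference (adjusted p = 0.0443).

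Of 26 regulators of the Cdkn2a-Cdkn2b locus tested, 3 were higher and 8 lower with AGi (median −0.10), 42.3% against 38.9% of all genes tested. The Polycomb subunits Eed (0.56 ± 0.12, limma adjusted p = 0.0085) and Suz12 (0.54 ± 0.11, adjusted p = 0.0081) were higher, and so was Ets2 (0.80 ± 0.08, adjusted p = 8.6e-04). The Tbx2 repressor fell by 1.03 ± 0.09 (adjusted p = 6.2e-04) and Id1 by 0.93 ± 0.21 (adjusted p = 0.0104). The Myc probe set, which may read the induced factor as well as the cells' own gene, fell by 1.09 ± 0.08 (adjusted p = 6.2e-04).

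Of 19 cyclin D, cyclin E and Rb pathway genes, 6 were higher and 4 lower with AGi (median 0.11), 52.6% against 38.9% of all genes tested, and 3 were higher without day 8. The largest was Tfdp2, a dimerisation partner of E2F proteins, which fell by 0.88 ± 0.12 (limma, adjusted p = 0.0019) and passed against the control difference (adjusted p = 0.0136). Ccnd1 fell by 0.41 ± 0.07 (adjusted p = 0.0049) and the Rb relative Rbl2 by 0.53 ± 0.11 (adjusted p = 0.0084). The highest were E2f4 (0.42 ± 0.08, adjusted p = 0.0045), the kinase gene Cdk6 (0.42 ± 0.10, adjusted p = 0.0132) and the ubiquitin ligase subunit Fbxw7 (0.37 ± 0.08, adjusted p = 0.0102). Of 23 proliferation genes, 6 were higher and 0 lower with AGi (median 0.27), 26.1% against 38.9% of all genes tested, but 1 without day 8, 1 without day 10 and 18 without day 2. In the OKSM arm 11 of these 23 fell over the days and 0 rose, against 3.87% and 5.11% of all genes, and 2 of 23 fell without day 2. Of 15 senescence-associated genes tested, 1 was higher and 5 were lower with AGi, 40% against 38.9% of all genes tested; 3 were lower without day 8, 10 or 12, and 0 higher without day 6, 8, 10 or 12. The lower ones were led by Igfbp3 (−1.49 ± 0.21, adjusted p = 0.0020), Igfbp5 and Igfbp7. Against the control difference, 8.53% of all genes tested passed. The counts higher and lower were 0 and 1 of 39 targets, 1 and 1 of 29 regulators and 0 and 1 of 3 other inhibitors. They were 0 and 1 of 19 for the Rb pathway and 1 and 4 of 26 for the locus. For proliferation they were 0 and 0 of 23, and for senescence 0 and 2 of 15.

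**Figure D4:**
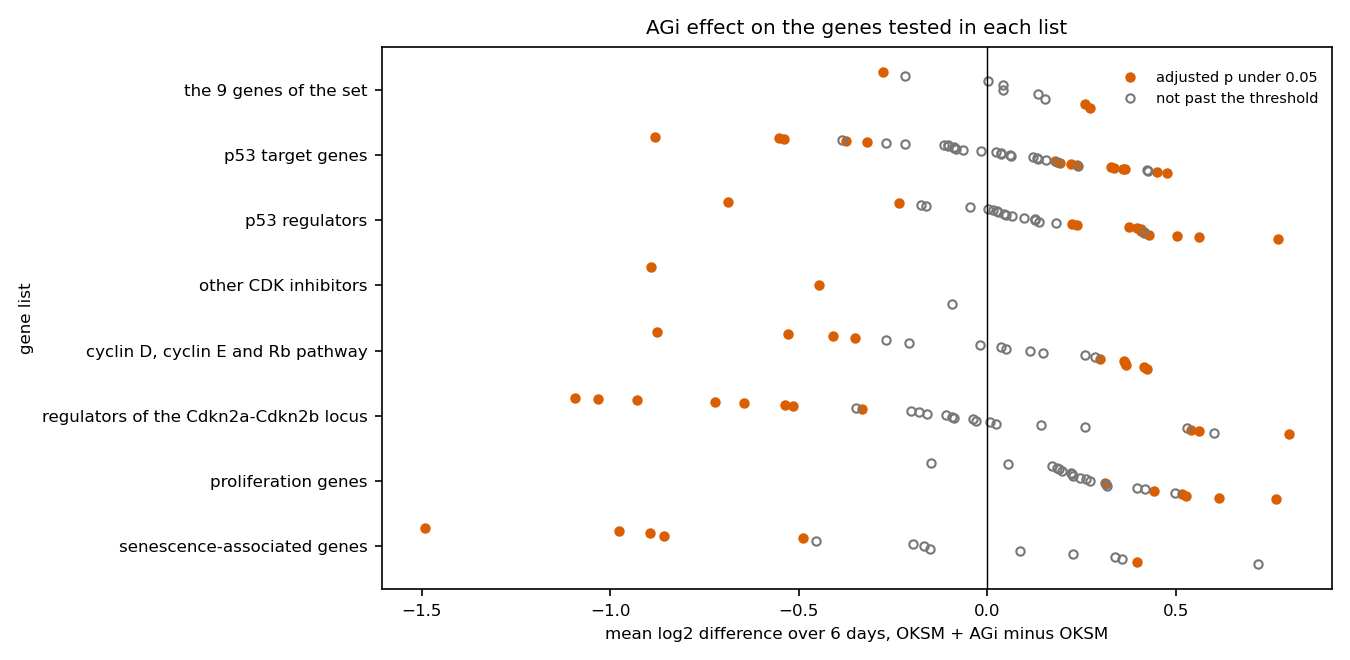
Mean log2 difference between OKSM plus AGi and OKSM over 6 days for each tested gene (points), by list; filled points passed limma at an adjusted p of 0.05 and open points did not. The 9 genes lie between −0.28 and 0.27, inside the spread of the longer lists, and the other CDK inhibitors all lie below 0.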

How the data were processed

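DNase-treated RNA, isolated with an RNeasy Mini kit per the labels, was measured on whole-transcript mouse gene arrays. The authors deposited log2 expression values per probe set from RMA and Affymetrix Expression Console (submitters' processing notes); their versions, settings and genome build are not given there or in the other sources used. Of 41345 probe sets, 23521 named 1 gene symbol, 1814 several and 16010 none, and the brightest on average stood for each of 22180 genes. The number of arrays limits the precision.

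AGi was tested with limma 3.58.1 in R 4.3.3 (eBayes; Benjamini-Hochberg over 13865 genes; threshold 0.05), blocking on day, which pairs 1 array of either arm and leaves 5 residual degrees of freedom. Slopes came from arm, day and their product, with 8 residual degrees of freedom. Single arrays were compared by size alone. The fits were tested on simulated data. Genes and lists were chosen with earlier results of these data known. Named genes were the 10 chosen by name, up to 3 per list with the highest and with the lowest AGi effect, the other CDK inhibitors, Trp63, Trp73, Mdm4, Nanog and Thy1, and the 3 best correlated with each of the 9; others are marked in the text. Alternatives were filters, probe set rules, normalization, variance models, thresholds, day terms, and each day or line left out. Figures used matplotlib 3.10.9 (Python 3.11.15).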

Additional observations from a re-analysis of the deposited data

Results flagged for a closer look

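The AGi minus OKSM difference of Ccng1 on day 2 (0.1733 log2) stood apart from those of the other 5 days, which lay between −0.05 and 0.01; its gap to the nearest was 0.705 of the whole range. Chance marks about 1 in 20 such groups, and 9 genes were examined. No other difference of the 9 genes met this rule.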

How the results depend on the processing

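No alternative turned the sign of a called difference or slope of the 9 genes. Among the 9 genes, AGi calls were 2 higher and 1 lower, against 2722 and 2675 of all genes tested. Where no count over all genes stands beside a setting below, it is not given here. They were 1 and 0 with no replicate block (day left out), 0 and 0 on days 2, 4 and 6 alone (799 and 1034 of all genes), 1 and 0 on days 8, 10 and 12 alone, 0 and 0 against the control difference (429 and 754 of all genes) and 0 and 0 at an adjusted p under 0.01 (1217 and 1408). Leaving out each day gave 0 to 2 higher and 0 to 2 lower, and 1692 to 2884 and 1842 to 2729 over all genes. Uncalled AGi differences turned sign for Cdkn1a (−0.00832) and Ccng1 (−0.0318) after repeated quantile normalization, for Cdkn2a (−0.00339) and Cdkn2b (−0.248) on days 2, 4 and 6, for Ccng1 (−0.0401) on days 8, 10 and 12, and between days left out for Ccng1 (−0.0322 to 0.0132) and Cdkn2b (−0.0629 to 0.178).

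Giving days 8 to 12 a level of their own left 0 genes with a called OKSM slope and 48 higher and 34 lower with AGi, and 0 of the 9 in each arm. Uncalled OKSM slopes then turned for Cdkn1a (0.0313), Cdkn1b (−3.2e-04), Cdkn2a (−0.0150), Cdkn2b (−0.00336), Ccng1 (0.00410), Bbc3 (0.00597) and Sesn2 (0.0515), and AGi slopes for Mdm2 (0.0109), Cdkn1a (0.00298), Cdkn2a (−0.0307), Cdkn2b (−0.0253), Bbc3 (0.00323) and Sesn2 (0.0149). Leaving out each day also turned the OKSM slopes of Cdkn1a (−0.0261 to 0.00328), Cdkn2b (−0.0121 to 0.0416) and Trp53inp1 (−0.0252 to 0.0124), the AGi slopes of Bbc3 (−0.0343 to 0.0357), Sesn2 (−0.0118 to 0.00444) and Trp53inp1 (−0.00234 to 0.0191) and the slope differences of Cdkn1a (−0.0206 to 0.00490), Bbc3 (−0.0315 to 0.0630) and Trp53inp1 (−0.0147 to 0.0276). The causes were not tested. With each day left out, called OKSM slopes were 0 to 1 higher and 0 to 1 lower among the 9 (204 to 1019 and 120 to 474 of all genes), AGi slopes 0 to 2 and 0 to 1 (577 to 1941 and 305 to 1342), and slope differences 0 (51 to 271 and 40 to 213). Late minus early days, with the replicate block, gave 89 genes a higher difference, against 244 slopes.

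After repeated quantile normalization 0 of the 9 genes were 1 log2 higher in sorted cells than in MEFs. The count over all genes in that setting is not given here. Leaving out each line gave 0 to 2 of the 9 higher than MEFs in pluripotent lines (1652 to 1839 of all genes). It gave 1 to 2 lower (1743 to 1836). Leaving out each day gave 2 to 3 higher than MEFs with AGi (904 to 1068 of all genes). On day 12 with AGi, leaving out each line gave 3 to 4 higher than the lines (1075 to 1185 of all genes). On day 12 of OKSM it gave 2 to 3 higher (1967 to 2024). With 1 array per condition, no alternative here measures the spread between cultures.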
